A study of Drosophila melanogaster with 6 samples.

Results

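Serine endopeptidases cut proteins within the chain with a reactive serine. Many are made as inactive zymogens that another protease cleaves, so that they act one after another in cascades, and serpins, inhibitors that trap the active enzyme, hold these cascades in check. In insects the family includes digestive trypsins and chymotrypsins, the cascades of the blood that lead to Toll signalling and melanization, intramembrane rhomboids that release epidermal growth factor ligands, and proprotein convertases that mature neuropeptides.

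The serine endopeptidase genes described here are the genes of the deposited table whose functional annotation contains the term serine-type endopeptidase activity and that had 10 or more counts in at least 3 of the 6 libraries. Of 17737 genes in the table, 281 carried the term and 116 of these passed the count limit. Of the 165 below the limit, 47 had no read in any library. RNA was sequenced from brains of Drosophila melanogaster larvae at the third instar, in 3 control and 3 DNMT3L libraries. The control group had the genotype elavC155-Gal4, a driver that makes the yeast activator Gal4 in neurons. The DNMT3L group was the progeny of that driver and a w/w stock with the transgene P(UAS-DNMT3L,w+) over the balancer Cyo and with the balancers TM2 and TM6B. Gal4 switches on DNMT3L from the transgene. DNMT3L is a mammalian partner of DNA methyltransferases without catalytic activity of its own. Both groups carry the driver. Since the transgene is balanced, only part of the progeny need carry it, and the labels do not say that larvae with it were selected, nor that replicates came from separate animals, so p-values measure the spread between these 6 libraries.

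Not every gene with the term is known as a protease. For 12 of the 116 genes the name gives another function, and 104 are left without them. The 12 include Rho1, a small GTPase, w, a transporter of eye pigment precursors, Hmu, the mucin-like hemomucin, skd, a Mediator subunit, Sec24AB and Sec24CD, coat proteins of secretory vesicles, and olf186-F, the calcium channel now named Orai. This set of 12 was drawn up after the values were seen. Of the 116 members, 56 are listed under a CG number, among them CG5045, whose current symbol is ClpP, and CG30090, now Erasp. On the FPKM scale, which divides by exonic size, the highest mean levels over the 6 libraries were those of Rho1 at 174, CG5390 at 139, w at 104 and Hmu at 95.6. Among the proteases by name, CG5045, the proteolytic subunit of a mitochondrial protease, followed at 59.2, TppII, a large cytosolic peptidase, at 36.9 and the rhomboid rho-4 at 35.6. The median member was at 3.19 FPKM and the lowest at 0.342. Many of these genes are sparsely counted: 58 of 116 had a mean under 5 CPM, the count relative to library size after TMM scaling, which is the measure used below.

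The members next to the count limit show how thin the data are there. Just inside it were CG11843 with 10, 6 and 12 counts in the control and 12, 4 and 2 in the DNMT3L libraries, Jon65Aii with 25, 10 and 9 against 1, 4 and 20, and CG10041 with 10, 9 and 16 against 12, 15 and 5. Just outside were epsilonTry with 2, 14 and 7 against 5, 11 and 9, CG4998 with 16, 4 and 9 against 4, 5 and 17, and CG8738 with 31, 3 and 13 against 1, 9 and 4. In 94 of the 116 genes all 6 libraries reached the limit. betaTry entered through the control libraries alone and CG8870 through the DNMT3L libraries alone. CG11843 was too low for the test across genes, which left 115 members tested.

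Library totals ran from 17928420 to 19251845 counts, and members took 0.258 to 0.349% of them. The libraries numbered 1 stood apart in both groups: control 1 was highest in 38.7% and lowest in 38.4% of all 9495 genes tested, and DNMT3L 1 highest in 32.3% and lowest in 34.0%. Markers of other tissues differed between the groups as well. Summed over 5 neuronal markers, the level was 96.1 to 465 CPM in controls and 524 to 1087 in DNMT3L libraries, with 5 of 5 higher, and the 5 neuroblast markers summed to 225 to 399 against 435 to 491, with 5 of 5 higher. The 11 hemocyte markers summed to 288 to 923 against 219 to 282, with 10 of 11 lower, the 7 fat body markers to 1287 to 2163 against 862 to 1091, with 5 of 7 lower, and the 5 tracheal markers to 547 to 656 against 277 to 425, with 4 of 5 lower. The hemocyte sum holds PPO1 and PPO2, at 251 and 306 CPM in control 1. Gene by gene, the groups were apart in 4 of the 11 hemocyte markers (36.4%, background 28.1%). In the fat body list they were apart in 5 of 7 (71.4%), with 3 lower and 2 higher, so its sum does not stand for every gene. Muscle markers summed to 359 to 760 against 81.0 to 302 with 6 of 6 lower, cuticle markers to 290 to 1055 against 77.9 to 324 with 5 of 6 tested lower, and ring gland markers to 802 to 1011 against 392 to 825 with 5 of 5 lower. Glial markers summed to 9374 to 16175 against 8554 to 11787 with 3 of 5 higher, and salivary gland markers to 14.3 to 73.0 against 26.6 to 207 with 8 of 8 tested higher. The glial sum was nearly all Obp44a, at 8994 to 15836 against 8128 to 11377 CPM, which had a lower mean in DNMT3L libraries. Of 12 gut markers only 3 could be tested, Mal-A7 had no read, and their sum was 3.59 to 11.9 against 1.54 to 5.50 CPM. Several of these differences depended on the libraries numbered 1. Without both, the median log2 fold change went from −1.44 to −0.09 for the cuticle markers and from 1.27 to 0.46 for the neuronal ones. It went from −1.22 to −0.73 for the hemocyte markers, and away from 0, from 1.61 to 2.79, for the salivary gland markers. The part of these tissues in the results below was not tested. In such bulk samples fewer cells of a type and less RNA per cell cannot be told apart.

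Setting the 3 DNMT3L libraries against the 3 controls asks which of these transcripts differ with the cross. The members lay mostly at lower levels in the DNMT3L libraries: 80 of 115 (69.6%) had a negative log2 fold change, against 52.3% of all genes tested, and their median was −0.36 against −0.03. Among the 104 genes without another function by name, 78 of 103 tested were lower, with a median of −0.45. The 12 others ran the opposite way, with 10 higher and a median of 0.24, although with the trend on exonic size removed (described below) 7 of the 12 were lower and the median was −0.02. No member passed the test of edgeR at an adjusted p of 0.05, and neither did any gene of the table, a background of 0%. The lowest edgeR adjusted p among members was 0.29.

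By weaker measures the members differed from the background mainly in direction. At an unadjusted p under 0.05, edgeR put 23 of 115 members, beside 15.0% of all genes. Of these, 19 were lower (16.5%, background 8.79%) and 4 higher (3.48%, background 6.23%). The 19 include betaTry and the 4 include CG8870. Each reached the count limit in 1 group only, so the limit set its direction. Among the 94 members at the limit in all 6 libraries, 62 were lower, with a median of −0.31. In that set 19 had an unadjusted p under 0.05. DESeq2, run on the same counts, called 9 of 116 members (7.76%) at an adjusted p under 0.05 against 2.44% of all genes it adjusted, and all 9 were lower (background for lower calls 1.57%). They were modSP, SPH93, Hayan, CG1299, CG9372, CG33465, CG34437, CG18180 and CG30090. The groups did not overlap in 29 members (25.2%), 22 lower and 7 higher, where the background was 28.1%, with 14.1% lower and 14.0% higher. Here too the 22 include betaTry and the 7 include CG8870. Control 1 was the highest library in 17 of the 22. With control 1 left out, 78 of 116 members were lower (background 49.7%), and the median was −0.28.

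**Figure D1:**
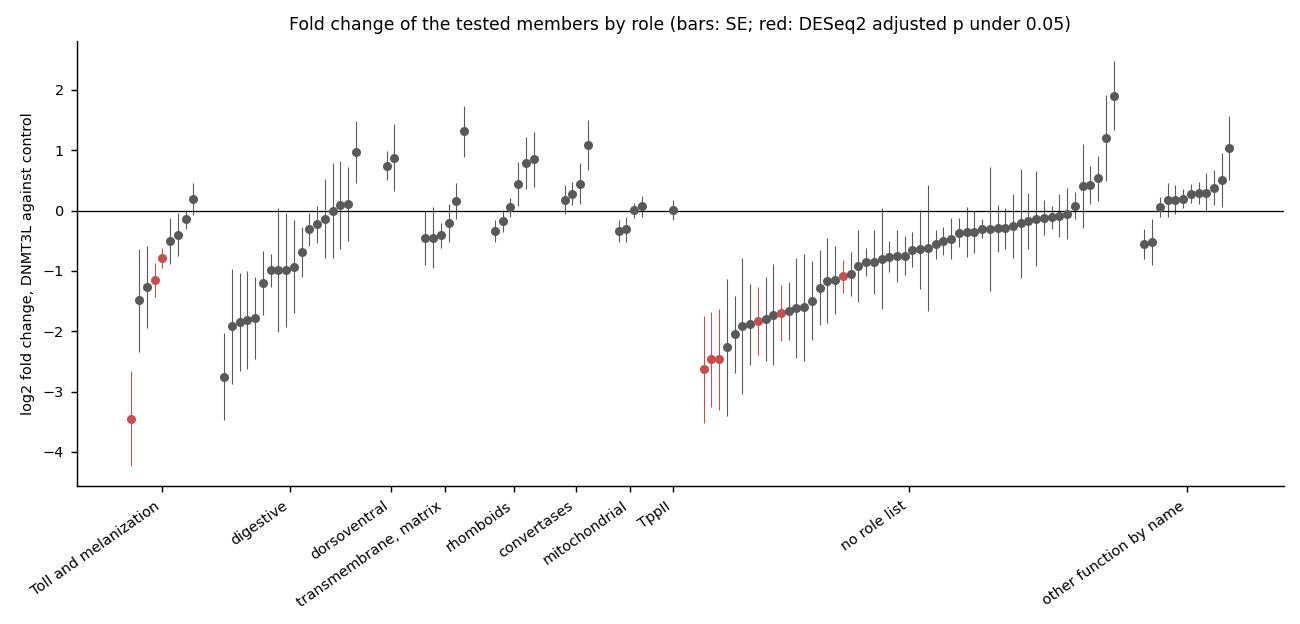
Log2 fold change of each of the 115 tested members, DNMT3L against control, from edgeR, ordered within each role; bars are the SE and red points the 9 members that DESeq2 called. Most members of the Toll and melanization, digestive and unlisted groups lie below 0, and the 4 convertases and most of the 12 genes with another function above it (rho-7 is drawn both with the rhomboids and with the mitochondrial proteases).

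The proteases of the Toll and melanization cascades lay mostly at lower levels, with the groups apart in modSP, Hayan and SPH93, 3 of 9 (33.3%, background 28.1%). Of 11 genes listed for these cascades, 9 were members, and 8 of the 9 were lower, and the median fold change (log2) was −0.78. It was −0.75 without control 1. MP1 had no read, and spheroide was below the count limit. Exons of MP1 overlap the member Vps24 on the other strand, and without the strand setting of the counts reads of the pair cannot be told apart. The summed level of the 9 was 132, 118 and 110 CPM in controls 1 to 3 and 79.2, 81.8 and 73.6 CPM in DNMT3L libraries 1 to 3, with no overlap.

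modSP (chromosome 3R, 16652446 to 16655662, minus strand, BDGP6) encodes the modular protease at the head of the cascade, which receives the signal of microbial recognition proteins. It was at 52.9, 50.0 and 48.9 CPM in the controls and at 26.8, 34.8 and 26.7 CPM in the DNMT3L libraries. The 3 controls lay close to each other and above every DNMT3L library. The means were 50.6 ± 2.07 and 29.4 ± 4.63 CPM (SD, n = 3 each), 1.72-fold lower in DNMT3L. The log2 fold change of −0.78 ± 0.16 (SE) had an edgeR adjusted p of 0.29 and a DESeq2 adjusted p of 0.00797.

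Hayan (chromosome X, 18479983 to 18483772, minus strand) encodes a protease that activates the melanization branch. Its level was 10.2, 7.76 and 9.16 CPM in the controls against 2.98, 5.29 and 3.89 CPM. Here too every control exceeded every DNMT3L library. The means were 9.02 ± 1.20 and 4.06 ± 1.16 CPM, 2.22-fold lower, with a log2 fold change of −1.15 ± 0.29, an edgeR adjusted p of 0.305 and a DESeq2 adjusted p of 0.0189. An antisense RNA gene covers 36.2% of its exonic bases on the other strand, and since no source used here gives the strand setting of the counts, reads of the pair cannot be told apart.

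Hayan lies next to psh, the protease persephone, which senses microbial proteases, and CG15046, all on the minus strand within chromosome X, 18479983 to 18489620. psh was at 2.98, 0.542 and 1.94 against 0.426, 1.11 and 0.708 CPM, so that its groups overlapped (log2 fold change −1.27 ± 0.67). CG15046 was at 4.62, 5.32 and 4.44 against 3.03, 3.28 and 3.44 CPM, again with every control above every DNMT3L library (log2 fold change −0.56 ± 0.24, edgeR adjusted p = 0.332).

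SPH93, a serine protease homologue, had the largest log2 fold change of all members in size, and that size depended on control 1. Its level was 19.4, 5.75 and 3.13 CPM in controls and 1.33, 0.582 and 0.658 CPM in DNMT3L libraries. The groups did not overlap, and control 1 was far above the other libraries. The log2 fold change was −3.45 ± 0.78, with an edgeR adjusted p of 0.29 and a DESeq2 adjusted p of 0.000543, and it was −2.37 without control 1.

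Sp212 was at 1.76, 0.597 and 1.08 against 0.106, 0.953 and 0.152 CPM, with overlap (log2 fold change −1.49 ± 0.85). Sp7, the melanization protease, was at 30.8, 35.2 and 31.4 against 32.4, 26.1 and 29.3 CPM. spirit, another protease of the Toll cascade, was at 5.29, 11.8 and 8.08 against 7.72, 4.23 and 5.77 CPM. SPE, which cleaves the Toll ligand Spätzle, was at 2.01, 2.01 and 1.08 against 1.28, 1.27 and 1.32 CPM, and grass was the 1 member of the list with a higher mean, at 5.45 ± 0.977 against 6.23 ± 1.21 CPM. The groups overlapped in Sp7, spirit, SPE and grass as well.

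**Figure D2:**
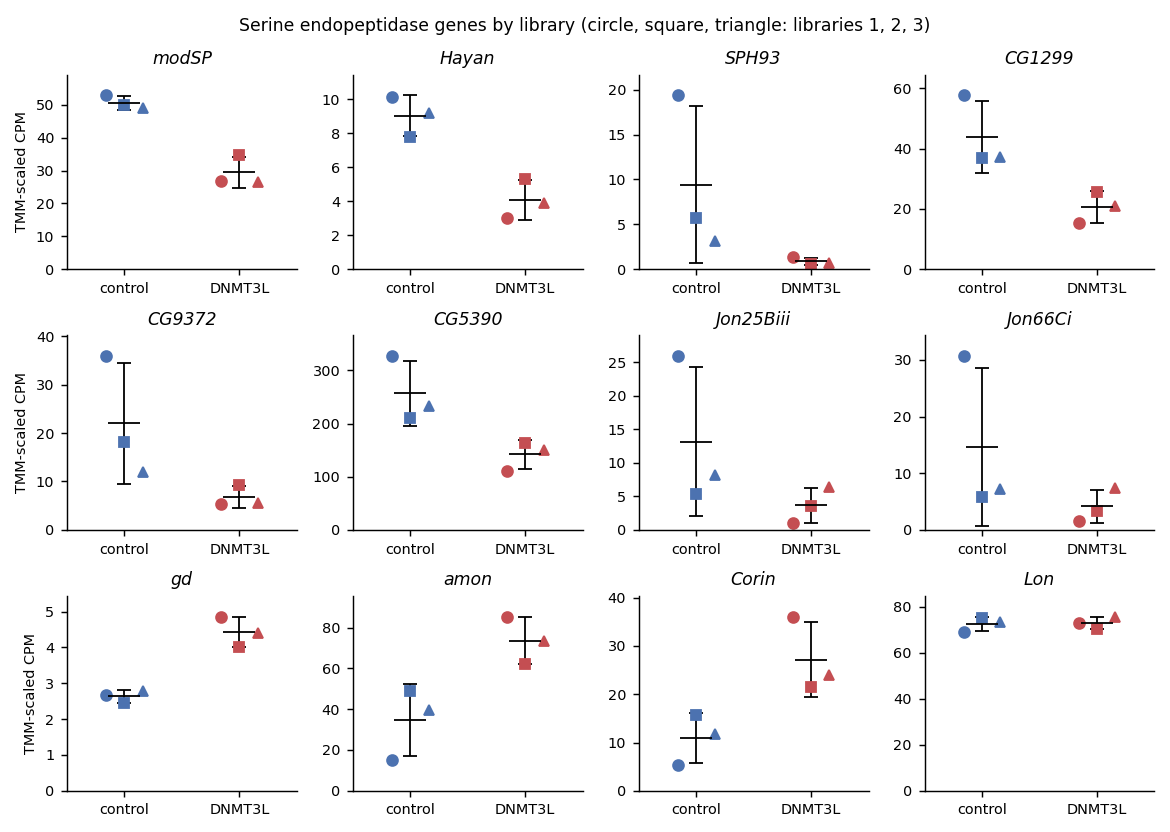
Level in TMM-scaled CPM (vertical axes, each from 0) of 12 members in the 3 control and 3 DNMT3L libraries; the horizontal bars are means and the whiskers SDs. Groups are apart in modSP, Hayan, SPH93, CG1299, CG9372, CG5390, gd, amon and Corin, and overlap in Jon25Biii, Jon66Ci and Lon, and control 1 is far above the others in SPH93, Jon25Biii and Jon66Ci.

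The digestive trypsins and chymotrypsins, best known from the midgut, were present at low levels. Of 33 such genes listed, 18 were members, most of them Jonah genes, and Ser7, Ser8 and Ser12 had no read. In 15 of the 18 the DNMT3L level was lower, and the median log2 fold change was −0.96, but without control 1 the median was −0.49. These genes are short, and among all tested genes of 300 to 1215 bases, the range of most of them, 83.1% were lower. With the size trend removed, 12 of the 18 were lower and the median was −0.54. Their summed level was 111, 55.3 and 67.0 CPM in controls and 26.3, 36.4 and 64.8 CPM in DNMT3L libraries, and the groups overlapped. In gut markers the same libraries held 3.59 to 11.9 and 1.54 to 5.50 CPM.

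Jon66Ci was at 30.6, 5.75 and 7.29 CPM in controls and 1.65, 3.39 and 7.39 CPM in DNMT3L libraries. Control 1 alone was high, and DNMT3L 3 was above controls 2 and 3. Its fold change (log2) was −1.81 ± 0.81, and −0.66 with control 1 left out. In Jon25Biii too control 1 was far above the rest, and DNMT3L 3 exceeded control 2, with 25.9, 5.42 and 8.20 against 1.01, 3.60 and 6.32 CPM and a log2 fold change of −1.85 ± 0.81, or −0.90 without control 1.

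In Jon65Aiv the order was different, with control 1 the lowest of the controls. It was at 10.2, 13.7 and 19.0 CPM in controls against 6.39, 7.62 and 7.54 CPM. The groups did not overlap, with means of 14.3 ± 4.43 and 7.18 ± 0.689 CPM, a log2 fold change of −0.99 ± 0.28 and an edgeR adjusted p of 0.322. betaTry, a trypsin, had 14, 25 and 13 counts in controls and 6, 1 and 1 in DNMT3L libraries, and since it entered the set through the controls it had to be lower (log2 fold change −2.76 ± 0.72). alphaTry, another trypsin, stayed below the count limit, with 38, 36 and 1 counts in controls and 0 in each DNMT3L library (DESeq2 adjusted p = 0.00628). Jon44E was at 3.34, 0.814 and 0.911 against 0.373, 0.370 and 0.708 CPM.

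Not all Jonah genes shared this direction. Jon99Cii was at 7.84, 1.9 and 3.30 against 1.60, 3.70 and 8.60 CPM, highest in DNMT3L 3. Its means were nearly level, at 4.35 ± 3.11 and 4.63 ± 3.59 CPM. Jonah genes and trypsins are near copies of each other, and no source used here says how reads that match several of them were counted, so levels of single genes are uncertain.

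The cascade that sets the embryonic dorsoventral axis gave the opposite direction, on few reads. Of its 4 proteases gd and ea were members, and both had higher means in DNMT3L libraries, while ndl and snk did not reach the count limit. gd, gastrulation defective, was at 2.67, 2.44 and 2.79 CPM in controls and 4.84, 4.02 and 4.40 CPM in DNMT3L libraries. The spread within each group was small beside the gap, and the groups did not overlap. The means of 2.63 ± 0.177 and 4.42 ± 0.412 CPM gave a log2 fold change of 0.75 ± 0.25 with an edgeR adjusted p of 0.332. It was 0.76 without control 1. ea, easter, was at 5.05, 2.12 and 3.24 against 2.45, 9.47 and 7.13 CPM, with overlap.

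Transmembrane and matrix-associated proteases differed among themselves. Corin, named for the mammalian protease that activates a natriuretic peptide, was at 5.29, 15.7 and 11.8 CPM in controls and 36.0, 21.4 and 24.1 CPM in DNMT3L libraries. Every DNMT3L library was above every control, and the 2 libraries numbered 1 were the extremes. The means were 10.9 ± 5.27 and 27.2 ± 7.75 CPM, with a log2 fold change of 1.31 ± 0.42 and an edgeR adjusted p of 0.332, and the fold change was 0.63 once each library's trend with exonic size was removed, as described below. mas, masquerade, a homologue without protease activity, was at 44.6, 47.8 and 58.6 against 33.1, 47.4 and 33.1 CPM. Np, a transmembrane protease of the apical matrix, was at 8.21, 24.8 and 15.4 against 16.5, 9.21 and 9.56 CPM, and scaf, scarface, at 16.5, 25.2 and 27.8 against 34.7, 23.8 and 19.0 CPM. In these 3 the groups overlapped.

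Rhomboids cut their substrates within the membrane. Of 7 genes 6 were members, and 4 of the 6 were higher, with a median log2 fold change of 0.25, or 0.08 without control 1. In none were the groups apart. rho, which releases the ligand Spitz, was at 8.02, 17.2 and 13.7 CPM in controls against 25.1, 14.1 and 13.7 CPM. Its neighbour stet was at 2.74, 8.30 and 5.12 against 11.8, 8.84 and 7.39 CPM. In both genes control 1 was lowest and DNMT3L 1 highest. rho-5, an inactive rhomboid, had the same order of extremes, with 17.3, 60.5 and 44.2 against 98.6, 53.4 and 67.4 CPM and a log2 fold change of 0.85 ± 0.46. rho-4, the most abundant, was at 69.3, 87.1 and 88.1 against 82.0, 90.6 and 81.1 CPM, and ru, roughoid, was at 32.6, 22.3 and 28.1 against 25.2, 25.6 and 22.8 CPM.

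All 4 proprotein convertases of the subtilisin family were members, and all 4 had higher means in DNMT3L libraries, with a median log2 fold change of 0.36. It was 0.17 without control 1 and −0.11 with the size trend removed, where 2 of the 4 were lower. amon (chromosome 3R, 26697697 to 26714159, minus strand) encodes the convertase that matures neuropeptides in peptidergic neurons. Its level was 15.0, 49.1 and 39.7 CPM in controls and 85.2, 62.2 and 73.3 CPM in DNMT3L libraries. Every DNMT3L library was above every control, and control 1 was well below the other controls. The means of 34.6 ± 17.6 and 73.6 ± 11.5 CPM gave a log2 fold change of 1.09 ± 0.41 with an edgeR adjusted p of 0.332, or 0.73 without control 1. The 5 neuronal markers moved with it, at 96.1 CPM in control 1, 370 and 465 CPM in controls 3 and 2, and 524 to 1087 CPM in DNMT3L libraries, and their part in the result was not tested. The furins were less apart: Fur1 was at 21.0, 44.8 and 33.0 against 60.9, 35.5 and 38 CPM and Fur2 at 92.0, 151 and 110 against 162, 123 and 116 CPM. S1P, the protease that activates membrane-bound transcription factors, was at 12.6, 16.4 and 18.3 against 20.1, 18.4 and 19.1 CPM, with every DNMT3L library just above every control (log2 fold change 0.28 ± 0.19).

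Among the proteases of mitochondria and cytosol, no groups were apart. Lon, the matrix protease, was at 69.1, 74.9 and 73.2 CPM in controls and 72.7, 70.2 and 75.3 CPM in DNMT3L libraries. HtrA2, of the intermembrane space, was at 11.9, 14.1 and 13.9 against 14.7, 14.0 and 13.1 CPM. TppII was at 152, 201 and 175 against 197, 172 and 164 CPM. CG5045, ClpP, was at 98.7, 61.0 and 74.6 against 58.4, 68.4 and 61.8 CPM, and rho-7, the mitochondrial rhomboid, at 46.9, 36.5 and 34.3 against 28.2, 29.7 and 34.8 CPM, with control 1 highest in both. A gene on the other strand covers 56.8% of the exonic bases of rho-7.

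The members in no list of roles, nearly all known by a CG number, held most of the lower values. Of 54 tested 48 were lower, and the median fold change (log2) was −0.70, or −0.43 without control 1, where 40 were lower. With the size trend removed, 38 of the 54 were lower and the median was −0.58. The groups did not overlap in 17 (31.5%, background 28.1%), 16 lower and 1 higher. DESeq2 called 6, where its background was 2.44%.

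CG5390 (chromosome 2L, 10304069 to 10306594, minus strand) was the most abundant of them. It was at 327, 210 and 234 CPM in controls and 111, 164 and 151 CPM in DNMT3L libraries. The groups did not overlap, and the means of 257 ± 61.6 and 142 ± 27.5 CPM differed by a log2 fold change of −0.85 ± 0.23, with an edgeR adjusted p of 0.322 and a DESeq2 adjusted p of 0.0585. CG1299 (chromosome 3L, 4148696 to 4152473, plus strand) was at 57.7, 36.9 and 37.2 against 15.3, 25.6 and 20.9 CPM. Its means of 43.9 ± 11.9 and 20.6 ± 5.18 CPM gave a log2 fold change of −1.09 ± 0.27, with an edgeR adjusted p of 0.305 and a DESeq2 adjusted p of 0.0254.

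CG9372 (chromosome 3L, 19606208 to 19608368, plus strand) was at 35.9, 18.2 and 11.9 CPM in controls and 5.43, 9.37 and 5.51 CPM in DNMT3L libraries. Every control was above every DNMT3L library, with a log2 fold change of −1.70 ± 0.46, an edgeR adjusted p of 0.32 and a DESeq2 adjusted p of 0.0189. Its 3′ end overlaps Lon on the other strand over 21.6% of its exonic bases, and Lon itself was at almost the same level in both groups.

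In the other 4 of the 6 the controls spread widely. CG33465 was at 41.3, 18.1 and 10.6 against 3.57, 8.47 and 7.64 CPM, with a log2 fold change of −1.83 ± 0.57, or −1.13 without control 1, and a DESeq2 adjusted p of 0.0428. CG30090 was at 47.9, 13.9 and 6.83 against 1.54, 4.07 and 6.78 CPM, so that control 3 and DNMT3L 3 nearly met. Its log2 fold change was −2.46 ± 0.84, or −1.33 without control 1, with a DESeq2 adjusted p of 0.0412. CG18180 was at 17.1, 4.50 and 6.55 against 0.319, 0.953 and 3.24 CPM, with a log2 fold change of −2.63 ± 0.88, or −1.87 without control 1, and a DESeq2 adjusted p of 0.044. CG34437 was at 11, 2.71 and 1.65 against 0.532, 1.16 and 1.06 CPM, with a log2 fold change of −2.47 ± 0.79, or −1.24 without control 1, and a DESeq2 adjusted p of 0.0471. Control 1 was the highest library in all 4.

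Other members without a role and with groups apart, not all of which are given here, included CG4259 at 25.4, 8.25 and 5.29 against 1.81, 4.23 and 4.45 CPM. In CG14990 the levels were 6.63, 3.09 and 1.54 against 0.798, 0.529 and 1.37 CPM. CG33225 was at 4.50, 1.79 and 2.05 against 0.798, 1.16 and 0.658 CPM. CG7432 at 5.47, 2.44 and 3.70 against 1.70, 1.75 and 2.12 CPM and CG11836 at 4.68, 3.85 and 4.15 against 2.24, 2.59 and 2.63 CPM had tight DNMT3L values. The 1 gene of this kind at a higher level was CG8870, with 1, 5 and 7 counts in controls and 17, 18 and 19 in DNMT3L libraries, which entered the set through the DNMT3L libraries.

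Among the 12 members with another function, Rho1 was at 325, 387 and 403 CPM in controls against 501, 419 and 434 CPM, with the groups just apart (log2 fold change 0.28 ± 0.15). Hmu was at 156, 226 and 219 against 265, 239 and 235 CPM (log2 fold change 0.30 ± 0.18). skd, whose exonic size of 12307 bases is the largest of all members, was at 24.9, 97.6 and 63.1 against 192, 95.7 and 93.4 CPM. For skd the fold change (log2) was 1.04 ± 0.53, and 0.26 after removal of the size trend. Sec24CD was at 64.4, 126 and 115 against 137, 101 and 106 CPM, Sec24AB at 47.1, 96.7 and 87.1 against 118, 92.4 and 89.0 CPM and CG4538, now ClpX, at 46.5, 106 and 83.2 against 123, 77.5 and 88.7 CPM. In these 3, control 1 was lowest and DNMT3L 1 highest. w, which the labels also name as the marker carried by the transgene, was at 206, 399 and 257 against 157, 308 and 136 CPM, with overlap.

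The serpins, which inhibit these proteases and carry no such term, lay on the same side. Of 28 serpin genes, 17 could be tested, and 17 of 17 had lower means in DNMT3L libraries, with a median log2 fold change of −0.71. Leaving out control 1 gave a median of −0.41, and 15 were lower. With the size trend removed it was −0.44 and 16 were lower. Their groups did not overlap in 4 (23.5%, background 28.1%), and DESeq2 called 2, where its background was 2.44%. An unadjusted edgeR p under 0.05 was found in 3 of the 17, beside 15.0% of all genes.

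Spn77Ba, which restrains melanization in the trachea, was at 44.5, 40.5 and 40.3 CPM in controls and 24.5, 28.8 and 22.3 CPM in DNMT3L libraries. The controls were tight and all above the DNMT3L libraries, with a log2 fold change of −0.73 ± 0.16, an edgeR adjusted p of 0.29 and a DESeq2 adjusted p of 0.0143. Spn28Dc, also an inhibitor of melanization, was at 22.2, 15.8 and 16.3 against 8.94, 10.7 and 7.49 CPM, with a log2 fold change of −1.0 ± 0.24 and a DESeq2 adjusted p of 0.0179. Spn27A, which limits both melanization and Toll activation, was at 242, 141 and 159 against 80.01, 114 and 95.5 CPM (log2 fold change −0.90 ± 0.25, edgeR adjusted p = 0.323). Of these serpins the groups were apart in all 3. Spn88Ea at 192, 135 and 146 against 97.3, 138 and 108 CPM, Spn43Aa at 66.5, 178 and 99.7 against 113, 31.0 and 64.6 CPM and Spn42Da at 54.2, 42.5 and 44.4 against 39.7, 44.8 and 42.6 CPM overlapped.

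**Figure D3:**
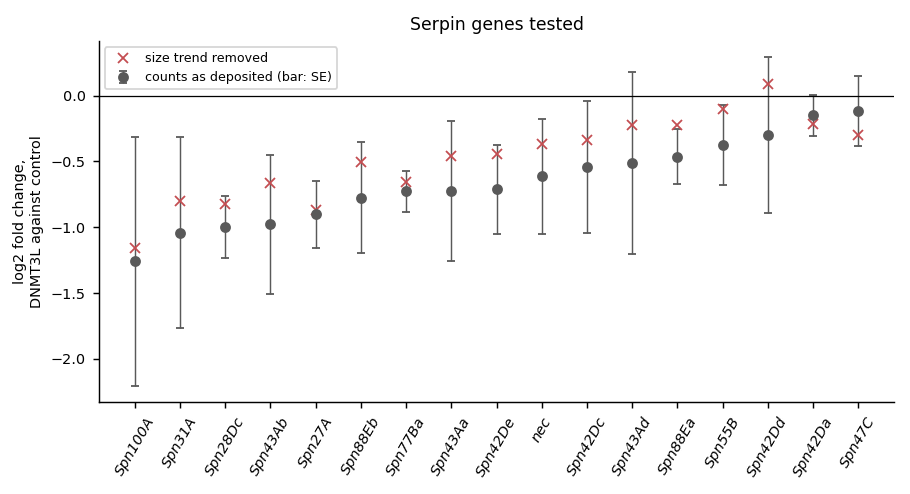
Log2 fold change of the 17 tested serpin genes, DNMT3L against control; circles with SE bars are from the counts as deposited and crosses from the fit with each library's size trend removed. All circles lie below 0, and 16 of 17 crosses do.

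Substrates and downstream partners did not lie on 1 side: of 18 tested 9 were higher and 9 lower, and the median log2 fold change was −0.03. The prophenoloxidases, the enzymes that the melanization cascade activates, were at lower levels. PPO1 was at 251, 54.6 and 37.8 CPM in controls against 24.8, 20.5 and 30.6 CPM (DESeq2 adjusted p = 0.0402), and PPO2 at 306, 82.1 and 62.6 against 54.6, 36.0 and 53.2 CPM. Both are made in crystal cells and stand in the hemocyte marker list as well, so their own levels are part of its sum. That sum was 923 CPM in control 1, its highest library, of which PPO1 and PPO2 made up 251 and 306 CPM. spz, the ligand of Toll, was at 21.6, 19.0 and 19.0 against 21.7, 19.7 and 19.8 CPM, while the receptor gene Tl was at 35.9, 90.8 and 66.5 against 139, 93.3 and 103 CPM, and Toll-7 at 46.0, 154 and 112 against 260, 147 and 160 CPM. spi, the ligand that rhomboids release, was at 207, 247 and 242 against 311, 286 and 278 CPM, with the groups apart (log2 fold change 0.33 ± 0.14, edgeR adjusted p = 0.332), and its receptor Egfr at 87.7, 128 and 104 against 115, 103 and 77.8 CPM.

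The fold changes of members varied with exonic size, as they did across the table. Spearman's rho between log2 fold change and size was 0.45 over 115 members and 0.58 over all 9495 genes, values across genes that share the same 6 libraries. The 39 shortest members, up to 1215 bases, were lower in 35 genes with a median of −0.93. All 2025 tested genes in that range of sizes were lower in 83.1%, with a median of −0.39. The 38 members of 1222 to 1956 bases had a median of −0.53, where 2185 genes of such sizes had −0.22, and the 38 longest had 0.11, where 5132 genes had 0.22. In each range the members' median was thus below that of genes of similar size.

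When the trend of each library with size was removed by a loess fit, the members' median was −0.32, against −0.01 for all genes, and 75 of 115 were lower (background 50.8%). The 39 shortest were then at −0.50 against −0.0028 for all genes of that range, the 38 of middle size at −0.34 against 0.01 and the 38 longest at −0.23 against −0.02. By role the medians were −0.75 for the Toll and melanization cascades, −0.54 for the digestive genes and −0.58 for the members with no role. The 7 tested transmembrane and matrix-associated genes, of which 6 are members, had −0.70, with 6 of 7 lower. The medians for the rhomboids at 0.20 and the dorsoventral genes at 0.95 stayed above 0. No member was called in that fit, where 0.137% of all genes were.

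**Figure D4:**
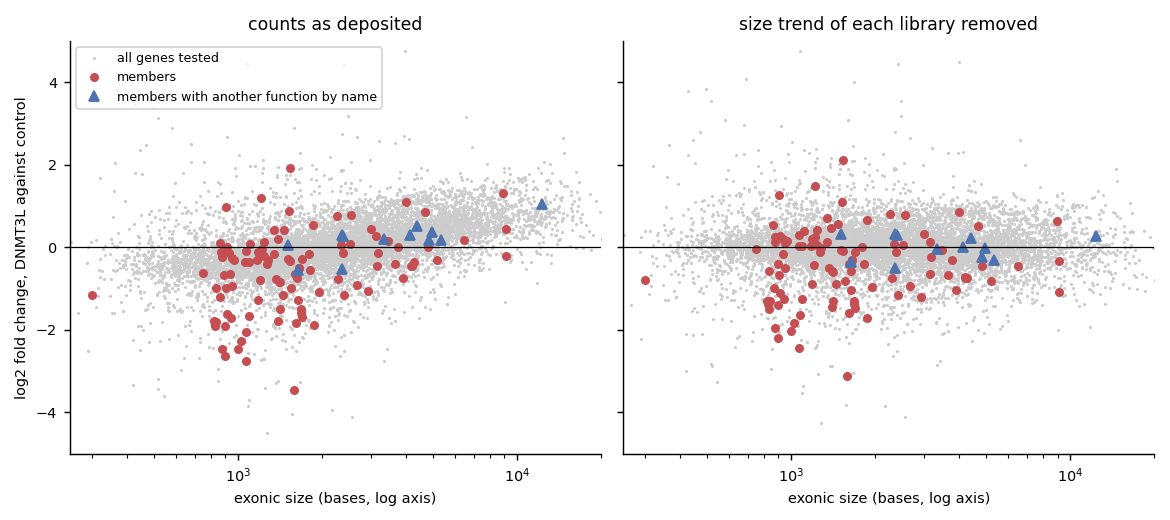
Log2 fold change, DNMT3L against control, against exonic size in bases (log axis) for all genes tested in grey, members in red and the 12 members with another function by name as blue triangles; a few of the grey genes fall outside the axes. On the left the fold changes of both grey genes and members climb with size, and on the right, with each library's size trend removed, the grey genes centre on 0 and 75 of 115 members lie below it.

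The size trend was steepest in the libraries numbered 1. Over the 39 shortest members the median log2 deviation from the mean of the 6 libraries was 1.24 in control 1, 0.00 in control 2 and 0.01 in control 3, and −0.83, −0.39 and −0.03 in DNMT3L 1 to 3. Over the 38 longest it was −0.43 in control 1, 0.26 in DNMT3L 1 and between −0.04 and 0.19 in the others. Control 1 was the highest library in 47 of 116 members (40.5%) and DNMT3L 1 the lowest in 42 (36.2%). Without both libraries numbered 1, rho was −0.06 over members and the members' median −0.18, with 80 of 115 lower, of which 66 were also lower in the fit to all 6 libraries. The 39 shortest members then had a median of −0.07, against −0.04 for all genes of that range. It was −0.27 against −0.02 for the 38 of middle size and −0.16 against 0.02 for the 38 longest.

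**Figure D5:**
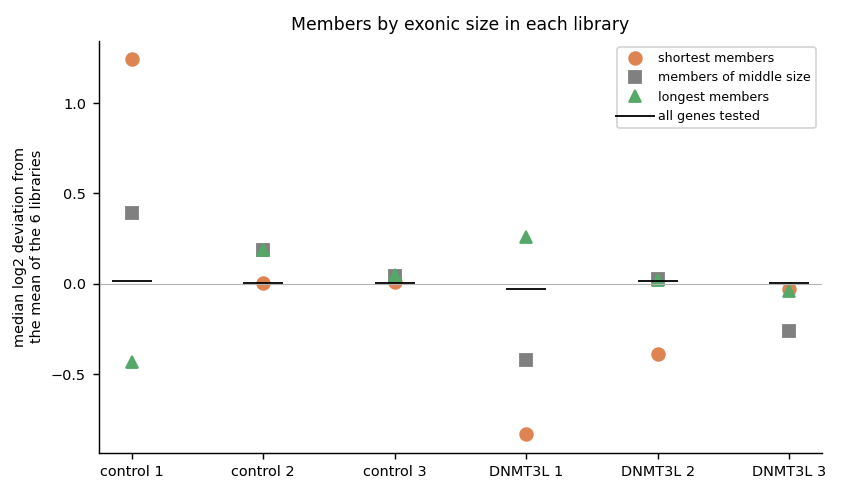
Median log2 deviation of members from the mean of the 6 libraries (vertical axis) in each library, for the 39 shortest members, the 38 of middle size and the 38 longest, with a black line for the median of all genes tested. Control 1 and DNMT3L 1 lie at opposite ends for the shortest members, at 1.24 and −0.83, and cross over for the longest.

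Many members lie next to one another. Within 20 kb of the nearest other member, 43 formed 17 runs. In the run on chromosome 2R from 15680545 to 15698010, all 4 members were lower: CG30091 was at 4.44, 1.36 and 0.626 against 0.266, 1.38 and 0.455 CPM, CG33460 at 60.9, 15.3 and 7.74 against 3.41, 9.10 and 12.8 CPM and CG33462 at 5.17, 1.19 and 0.455 against 0.0532, 0.318 and 1.01 CPM, beside CG30090 above. All 4 were highest in control 1 and lowest in DNMT3L 1. The 6 members of the Jon65A run on chromosome 3L, from 6035216 to 6062910, were lower in 5. The pair rho and stet on 3L was higher, and the Jon99C pair on 3R only slightly so. Both Jon99C genes and rho changed sign in at least 1 of the alternative fits given below, and stet in none. By chromosome arm, 14 of 16 tested members were lower on 2L, 20 of 26 on 2R, 20 of 26 on 3L, 19 of 34 on 3R and 7 of 13 on X.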

How the data were processed

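The deposited table holds whole-number counts for every gene and library, with FPKM, exonic size, coordinates and functional terms beside them, per the file headers. Per the submitters' processing notes, HISAT2 2.0.1, HTSeq 0.6.1, DESeq2, cutadapt 1.9.1 and bcl2fastq 2.17.1.14 were among the tools, and BDGP6 and dm6 are the builds named. No source used here gives each tool's role, the strand setting or the annotation release. Per the labels' protocols, RNA came from TRIzol or a column and libraries from poly(A) isolation or rRNA removal with random primers, and which was used is not given. The authors' FPKM values could be recomputed from counts, size and total for 100% of values.

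Counts were tested with edgeR 4.0.16 in R 4.3.3 (filterByExpr, TMM, quasi-likelihood F test, two-sided, Benjamini-Hochberg over all 9495 genes tested, threshold 0.05). SEs follow from the F statistic, and CPM are TMM-scaled. Common biological variation was 31.5%, and 26.1% without control 1. A floor of 3 counts is 0.156 to 0.167 CPM before TMM scaling and covers counting error only. Tried as alternatives were DESeq2 1.42.0, RLE and upper-quartile factors, all genes without a filter, a replicate block, libraries left out, limma 3.58.1 on log2(FPKM + 1) or log2(FPKM + 0.1), subtraction, per library, of a loess curve (span 0.5) fitted to log2 deviations over log2 exonic size, members at 10 or more counts in all 6 libraries, the exact term, and members without the 12 of other function. Same-numbered libraries did not deviate together (r of −0.66, −0.54 and −0.18), so the numbers were not used as pairs. The fits were tested on simulated counts. Members were named if among the 20 with the lowest edgeR p, the 10 of highest mean CPM, the 4 highest of each role list, or called by DESeq2. psh, CG15046, Sp212, grass, SPE, rho, stet, alphaTry, Jon44E, yip7, CG30091, CG33460, CG33462, Spn77Ba, Spn28Dc, PPO1, spz and Tl were added after their values were seen. The members and the 8 role lists, the serpin, partner and marker lists were chosen with earlier results of these data known. All 116 members were found in Ensembl 115, 114 with identical coordinates. Coordinates are those of the deposited table. Exons of 34 members overlap another gene. Sequences were not used here. Figures used Python 3.11.15 with matplotlib 3.10.9.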

Additional observations from a re-analysis of the deposited data

How the results depend on the processing

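No member was called by edgeR or limma in any alternative, and DESeq2 called 9. Over the whole table, where the fit as described called 0 genes (1427 at an unadjusted p under 0.05), DESeq2 called 260, RLE size factors 2, no low-count filter 6, leaving out both libraries numbered 1 16, limma 13 on log2(FPKM + 1) and 11 on log2(FPKM + 0.1), and the fit with the size trend removed 13. Leaving out single libraries gave 0 calls in the table and among members, 16 to 31 members at an unadjusted p under 0.05, 35 to 47 members whose groups did not overlap (30.4 to 40.5% of members, against 32.2 to 56.4% of all genes) and medians of −0.44 to −0.28. With the replicate block, 11 members had an unadjusted p under 0.05 instead of 23, and 458 genes of the table instead of 1427; no call changed. Without both libraries numbered 1, groups did not overlap in 53 members (46.1%, against 44.2% of all genes), 28 members had the other sign, and the median was −0.18. On FPKM the median was −0.13 with a pseudocount of 1 and −0.20 with 0.1, where the median of all genes was 0.12 and 0.14, since FPKM is not scaled by TMM. With upper-quartile factors it was −0.44, where that of all genes was −0.09. Dropping the 12 members of other function, an alternative chosen after seeing the data, gave −0.45. Of 115 members, 43 changed sign in at least 1 alternative, with log2 fold changes up to 1.91 in size. A set of 38 members, with every member whose log2 fold change and SE are given above, held none of these (0 of 38). It also holds ea, mas, stet, Jon44E, CG4259, CG14990, CG33225, CG7432, CG11836, CG8870, CG30091, CG33460 and CG33462, given above by level or counts only. No fold change was printed above for any of the 43 that changed sign. The 0 of 38 therefore follows from which members are in the set and does not measure how stable the printed values are. Of 18 others named by the rule, 14 changed sign: Fur1 ranged from −0.33 to 0.73, Fur2 from −0.45 to 0.40, scaf from −0.31 to 0.33, Sec24CD from −0.23 to 0.39, Sec24AB from −0.03 to 0.60, CG4538 from −0.18 to 0.57, TppII from −0.45 to 0.19, Lon from −0.30 to 0.18, Jon99Cii from −0.71 to 1.24, and ru, rho-4, CG5045, Sp7 and HtrA2 also crossed 0. Genes under 5 CPM rest on few reads, which limits the precision of 58 members.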
